A study of Mus musculus with 8 samples.

Results

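The binding of the glucocorticoid receptor (GR) was examined at 6 genes that set the expression of the positive limb of the molecular clock. They were Clock, Arntl (also called Bmal1) and Npas2, whose proteins are the activators, Nr1d1 and Nr1d2, which encode the repressors REV-ERBα and REV-ERBβ, and Rora, which encodes the activating receptor RORα. The 6 genes were chosen by name from 21938 protein-coding genes, not by their signal, though with earlier results of these data known. Overlapping regions of the 6 GR peak lists were merged into 51431 sites, and the 28 sites centred within 50 kb of a gene start were taken, together with 10 of the 8394 peaks of a FOXO1 list.

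Chromatin immunoprecipitation followed by sequencing had been carried out on livers of adult male C57BL/6J mice collected at lights-off, with 2 biological replicates in each of 3 groups. Control mice (ctrl.) ate chow during the night only in the final week, calorically restricted mice (cal. res.) had received a stepwise reduced ration of the same chow given at lights-off, and the last group combined night-restricted feeding with daily injections of corticosterone (CORT), the main glucocorticoid of mice. All groups were of the same strain with no transgene named, and the labels do not say whether ctrl. mice were injected with vehicle. FOXO1 chromatin came from cal. res. livers alone, and its 2 libraries had been merged by the authors before peaks were called, so that FOXO1 values have no replicate spread.

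CLOCK or NPAS2 pairs with ARNTL to activate genes through E-box sequences. The targets include the REV-ERB genes, whose products sit on ROR and REV-ERB elements and silence Arntl, Clock and Npas2, whereas ROR proteins activate from the same elements. GR is a nuclear receptor that moves to chromatin when it binds a glucocorticoid, and in liver the daily glucocorticoid rise is known as a timing signal to the clock. FOXO1 is a forkhead factor that is active when insulin is low.

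Windows of 200 bp or less at the peak summits are shown for 7 of the sites, because the letters of clock elements or of a forkhead element were found there or, for the Nr1d1 start, because it was among the highest GR peaks near the 6 genes. They were read from GRCm38 (mm10) on the strand of the gene, and capitals mark matches to 1 of 8 motifs, which are named in front of each sequence.
Nr1d1, intron, GR summit, E-box CACGTG at 2 places (chr11:98773842-98774041, minus strand): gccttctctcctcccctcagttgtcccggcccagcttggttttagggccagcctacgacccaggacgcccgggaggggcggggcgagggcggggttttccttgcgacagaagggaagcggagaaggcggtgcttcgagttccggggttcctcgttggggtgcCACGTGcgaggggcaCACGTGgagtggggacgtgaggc
Nr1d1, upstream of the gene start, GR summit, C/EBP letters (chr11:98775334-98775510, minus strand): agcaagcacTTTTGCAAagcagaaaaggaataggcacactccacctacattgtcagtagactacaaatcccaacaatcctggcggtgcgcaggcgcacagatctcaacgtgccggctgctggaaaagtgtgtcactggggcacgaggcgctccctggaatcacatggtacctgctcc
Nr1d1, upstream, GR summit, E-box CACGTG (chr11:98783375-98783574, minus strand): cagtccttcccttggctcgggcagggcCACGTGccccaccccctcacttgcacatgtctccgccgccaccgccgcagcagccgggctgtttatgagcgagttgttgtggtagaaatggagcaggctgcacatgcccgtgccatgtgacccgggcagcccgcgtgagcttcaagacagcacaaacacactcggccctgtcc
Nr1d2, intron, FOXO1 summit, E-box CACGTG, forkhead TGTTTAC, D-box and a further E-box in this order (chr14:18238548-18238747, minus strand): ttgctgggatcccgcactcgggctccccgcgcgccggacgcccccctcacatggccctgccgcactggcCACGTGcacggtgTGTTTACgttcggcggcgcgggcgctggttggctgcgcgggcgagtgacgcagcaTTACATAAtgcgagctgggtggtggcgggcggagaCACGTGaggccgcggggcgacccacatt
Arntl, first exon, ROR and REV-ERB element TAGGTCA and forkhead TGTTTAC (chr7:113207541-113207568, plus strand): TAGGTCAgggacggaggtgccTGTTTAC
Npas2, upstream of the gene start, GR hexamer AGAACA on the reverse strand and TAGGTCA (chr1:39192729-39192928, plus strand): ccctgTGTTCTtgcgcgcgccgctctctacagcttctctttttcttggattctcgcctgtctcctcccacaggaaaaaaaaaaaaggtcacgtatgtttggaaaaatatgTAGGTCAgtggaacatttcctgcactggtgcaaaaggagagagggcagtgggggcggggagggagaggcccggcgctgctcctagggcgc
Rora, upstream of the inner transcript start, forkhead letters on the reverse strand (chr9:69288231-69288430, plus strand): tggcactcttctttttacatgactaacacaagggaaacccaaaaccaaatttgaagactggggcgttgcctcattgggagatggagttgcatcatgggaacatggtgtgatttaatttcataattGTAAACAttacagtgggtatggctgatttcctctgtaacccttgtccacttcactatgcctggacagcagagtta

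The GR sites were spread unevenly over the 6 genes. Nr1d1 had 15 sites within 50 kb, Npas2 and Nr1d2 had 4 each, Clock and Arntl had 2 each, and Rora had 1. The median protein-coding gene had 3, and 4.75% of genes had as many as Nr1d1 or more. Sites were counted by distance alone, and many of the 15 lay nearer to the start of Msl1, Thra, Casc3 or Med24 than to that of Nr1d1. Of the 28 sites, 10 had a peak in all 6 lists, against 15.7% of all sites, and 9 had a peak in 1 list only, against 37.4% of all sites. The 10 sites in every list fell to Nr1d1 (6), Nr1d2 (2), Clock (1) and Arntl (1), and neither Npas2 nor Rora had any within the window.

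**Figure D1:**
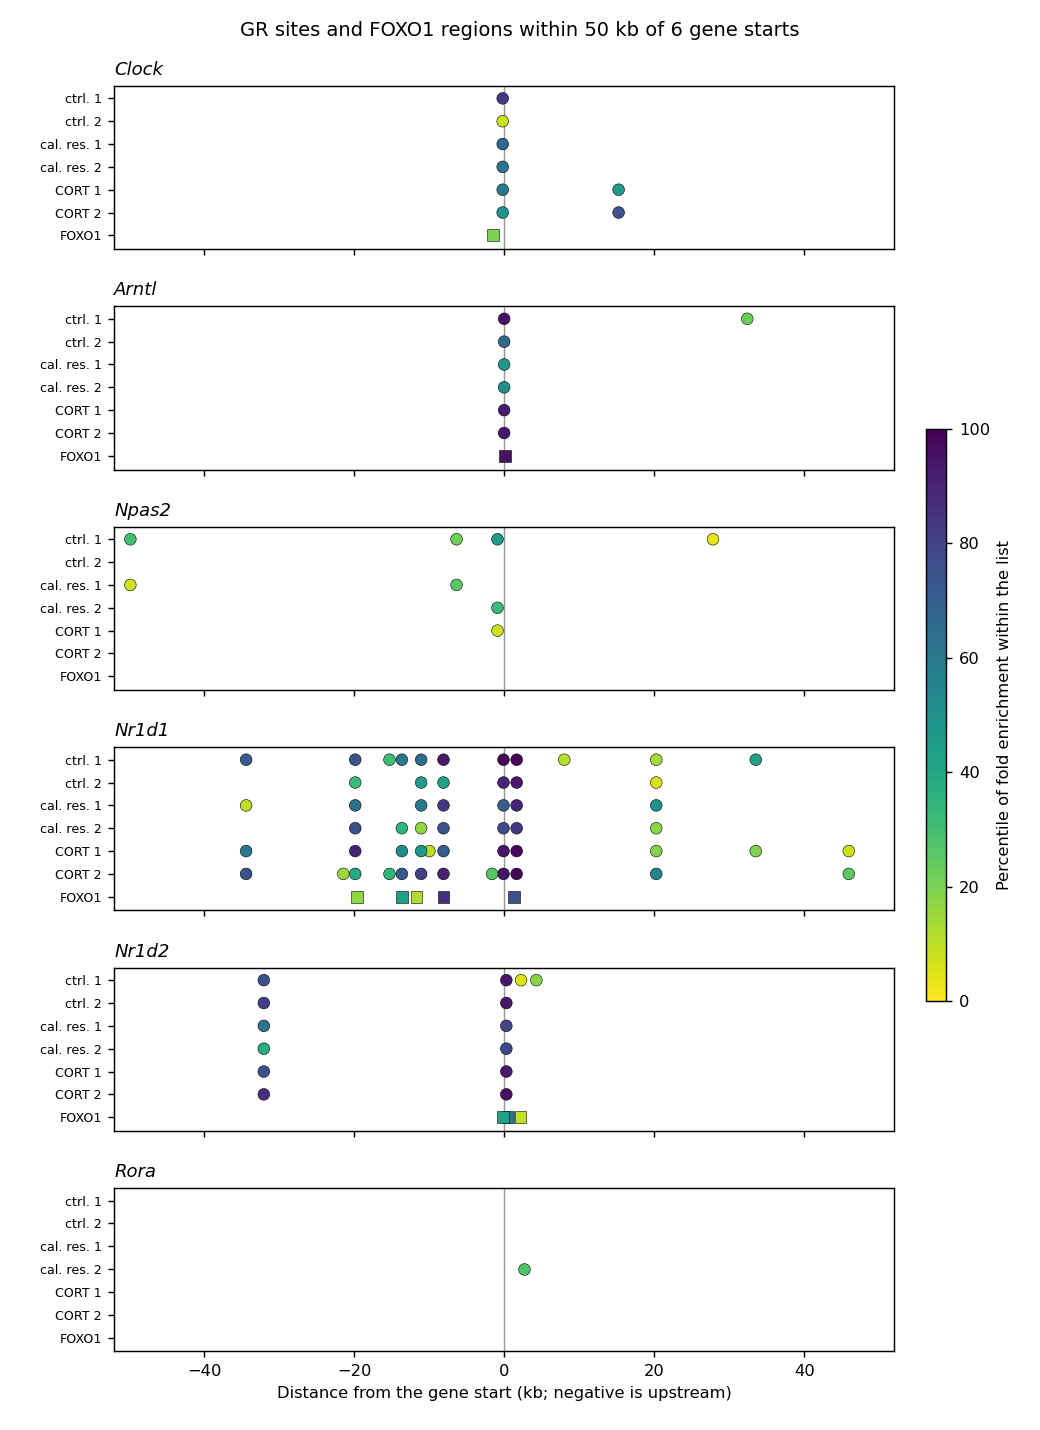
GR peaks of the 6 libraries (circles, 1 row per library) and regions of the merged FOXO1 list (squares) within 50 kb of 6 gene starts, by distance from the gene start in kb. Colour gives the percentile of fold enrichment within the list, with 100 the highest. The dense row of Nr1d1 sites, the single strong column at the Arntl start and the nearly empty Rora panel are the main features.

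The number of peaks differed between libraries over the whole genome. For ctrl. there were 36234 and 12458 regions, for cal. res. 22707 and 18747, and for CORT 29473 and 39136. Read totals of the single libraries were not analysed here, so that list length stood in for depth. Values were compared as percentiles within a list and not as fold enrichments. A percentile ran from 0 (lowest) to 100 (highest), by the fold enrichment over background that the peak caller gave. It also depends on how many weak peaks a list holds, so ranks among the sites in every list are given further on. Library names followed 2 styles, shared by ctrl. replicate 2 and both cal. res. libraries on one side and by ctrl. replicate 1 and both CORT libraries on the other. No label says what a style stands for. Style and group cannot be told apart between cal. res. and CORT, and only the 2 ctrl. libraries differ in style within a group. A name-style term, used below, therefore rests on the gap between those 2 libraries alone. Of 6 hepatocyte markers, 5 had a site with a peak in all 6 lists within 5 kb of the gene start, whereas none of 14 markers of other liver cells did and 3 of them had a peak in any list. In whole liver, weaker binding in every cell and binding in fewer cells cannot be told apart.

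Among the activators, Arntl (ENSMUSG00000055116.8, chr7:113207465-113314126, plus strand) had the highest GR peak in the ctrl. and CORT lists, and Clock in the cal. res. lists. The Arntl site at the gene start (chr7:113206814-113208051), with the highest summit in the first, untranslated exon 162 bp downstream of the start, lay at percentiles 95.3 and 66.1 for ctrl., 46.9 and 50.2 for cal. res. and 92.5 and 93.4 for CORT. By percentile both cal. res. libraries were the lowest of the 6, and the ctrl. libraries were far apart. In fold enrichment over background, which can be compared only within a list, the values were 18.02 and 5.28 for ctrl., 5.54 and 5.02 for cal. res. and 18.8 and 18.4 for CORT, so that ctrl. replicate 2 lay between the cal. res. libraries. FOXO1 was found at the same place, at percentile 95.3 of its list with a fold enrichment of 14.5, and its summit lay 41 bp from the GR summit. The only other Arntl site in the window, in an intron 32.4 kb downstream, was present in ctrl. replicate 1 alone, at percentile 22.7. Just outside the window, 53.3 kb downstream, a further intronic site was present in every list, at percentiles 87.0 and 70.9 for ctrl., 91.8 and 65.1 for cal. res. and 91.4 and 93.7 for CORT, and it overlapped a FOXO1 region at percentile 21.3.

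Clock (ENSMUSG00000029238.11, chr5:76209868-76304792, minus strand), whose product is the partner of ARNTL, had a broad site over its gene start (chr5:76303600-76306437) in every list, with less even values. It lay at percentiles 82.9 and 8.01 for ctrl., 67.1 and 61.6 for cal. res. and 59.7 and 48.7 for CORT, so that the 2 ctrl. libraries held the highest and the lowest value. Summits within it were up to 1190 bp apart between libraries, and the FOXO1 region inside it, at percentile 19.8, had its summit 1413 bp from the highest GR summit. The other Clock site, in an intron 15.2 kb downstream of the start (chr5:76289370-76289752), was present in the CORT libraries only, at percentiles 46.1 and 73.9.

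Npas2 (ENSMUSG00000026077.15, chr1:39193731-39363236, plus strand), whose product can stand in for CLOCK, had 4 sites in the window, and no group had a peak in both libraries at any of them. The site closest to its start, 920 bp upstream, had a peak in ctrl. replicate 1 at percentile 45.9, in cal. res. replicate 2 at 32.3 and in CORT replicate 1 at 7.31. The 3 others, at 49.9 and 6.38 kb upstream and 27.8 kb downstream, were found in ctrl. replicate 1 and, for the upstream pair, in cal. res. replicate 1, at percentiles from 3.84 to 29.9. No FOXO1 region lay within 50 kb of the Npas2 start.

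Nr1d1 (ENSMUSG00000020889.11, chr11:98767932-98775333, minus strand) had more sites than any of the other 5 genes and held the highest peaks in the window. Its product silences genes from ROR and REV-ERB elements. A site in its own intron, centred 1.64 kb downstream of the start (chr11:98772740-98774652), lay at percentiles 98.8 and 93.8 for ctrl., 89.2 and 85.1 for cal. res. and 97.9 and 99.2 for CORT. Its summits in the 6 libraries fell within 68 bp, next to the E-box pair printed above, whose centres were 66 and 81 bp from the highest summit. The site at the gene start (chr11:98774936-98775969) was at percentiles 98.3 and 89.4 for ctrl., 70.2 and 76.9 for cal. res. and 94.8 and 95.0 for CORT. At both places the cal. res. percentiles were the lowest 2 of the 6. The fold enrichments at the intron site were 30.5 and 9.501 for ctrl., 13.8 and 9.53 for cal. res. and 31.4 and 49.5 for CORT, and there ctrl. replicate 2 was the lowest.

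Upstream of Nr1d1, between the gene and its neighbour Msl1, a row of sites followed. The strongest, 8.12 kb upstream (chr11:98782941-98783967), was at percentiles 93.1 and 43.6 for ctrl., 83.8 and 74.6 for cal. res. and 71.2 and 90.9 for CORT, so that the groups overlapped. The site 11.1 kb upstream was at 65.3 and 45.5, 59.2 and 16.7, and 46.2 and 80.9 in the same order. The site 19.9 kb upstream, 294 bp from the start of Msl1, was at 74.3 and 32.3, 63.6 and 75.1, and 90.1 and 39.5. In none of these did a group stand clear of the others. A weak site 20.2 kb downstream, in an intron of the thyroid hormone receptor gene Thra, was at 13.5 and 5.49 for ctrl., 49.2 and 17.7 for cal. res. and 18.4 and 55.1 for CORT. The remaining 9 sites near Nr1d1 had peaks in 1 to 4 lists. Of these, 6 were found in 1 or 2 lists at percentiles from 10.8 to 42.5, and the 3 others are described with CORT.

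Nr1d2 (ENSMUSG00000021775.11, chr14:18204054-18239127, minus strand), the paralogue of Nr1d1, had 1 strong site over its start (chr14:18238052-18239690), at percentiles 94.1 and 93.7 for ctrl., 79.6 and 78.5 for cal. res. and 93.2 and 95.8 for CORT. By percentile the replicates of each group were close together here, and the cal. res. pair lay below all others. In fold enrichment ctrl. was at 16.7 and 9.45 and cal. res. at 9.77 and 7.99, so that ctrl. replicate 2 lay between the cal. res. libraries. The second Nr1d2 site with a peak in every list, 32.1 kb upstream and 67 bp from the start of Nkiras1, was at 74.7 and 82.0, 61.1 and 37.6, and 75.4 and 86.6. Weak sites in Nr1d2 introns 2.22 and 4.26 kb downstream of the start were seen in ctrl. replicate 1 only, at percentiles 5.44 and 17.2.

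Around the outer start of Rora (ENSMUSG00000032238.17, chr9:68653786-69388246, plus strand), GR was nearly absent from the lists. A single site 2.55 kb downstream had a peak in cal. res. replicate 2 only, at percentile 28.01, and no FOXO1 region lay within 50 kb. The picture changed along the gene itself, which is 734 kb long and was taken whole as an alternative to the window. Its body held 40 sites, 9 of them in all 6 lists, which is 5.45 sites per 100 kb, against a median of 0.923 over 2492 protein-coding genes of at least 100 kb. Of these long genes, 15.1% were as dense or denser.

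The strongest of the Rora sites lay in an intron 287 kb from the outer start (chr9:68940809-68941622), at percentiles 98.5 and 97.3 for ctrl., 97.5 and 97.9 for cal. res. and 99.2 and 97.4 for CORT, with a FOXO1 region at percentile 57.6. The values at this site differed by less than 2 percentile points between any of the libraries. A second transcript of Rora starts 636 kb inside the gene, and 20 sites lay within 50 kb of that inner start. One of them covered the inner start (chr9:69289114-69290299), at percentiles 78.1 and 41.8 for ctrl., 61.1 and 48.0 for cal. res. and 84.2 and 72.5 for CORT. Another, 1200 bp from it (chr9:69288023-69288941), was at 82.0 and 85.3, 96.5 and 90.5, and 80.3 and 97.3. Both overlapped FOXO1 regions, at percentiles 51.3 and 31.4.

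**Figure D2:**
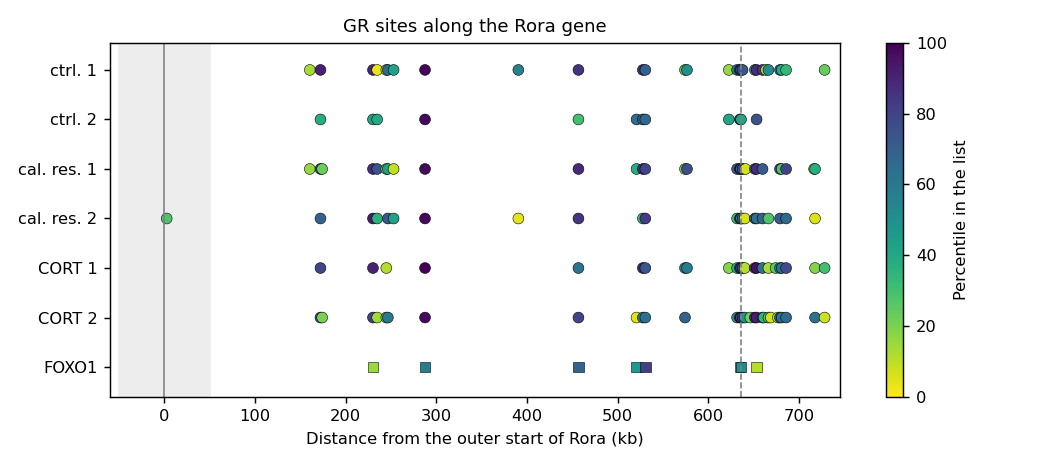
GR peaks of each library (circles) and overlapping FOXO1 regions (squares) along the Rora gene, by distance from its outer start in kb, coloured by percentile within the list. The grey band is the 50 kb window, the solid line the outer start and the dashed line the inner transcript start, round which the sites crowd.

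Of the 40 sites in Rora, both ctrl. libraries had a peak at 11 (27.5%), both cal. res. libraries at 19 (47.5%) and both CORT libraries at 22 (55.0%), against the 21.4%, 27.9% and 43.7% of all sites held by these groups. With the 12458 highest regions of each library, a comparison added after the data had been seen, 23 sites remained, held by ctrl. at 9, by cal. res. at 14 and by CORT at 10. The share was then 39.1% for ctrl. against 36.04% of all sites, 60.9% for cal. res. against 42.5%, and 43.5% for CORT against 42.2%. Sites of 1 gene are not replicates, and these shares carry no test. At the 9 Rora sites in all 6 lists none of the differences between groups was called by limma in any comparison, with adjusted p-values from 0.2497 to 0.983.

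Caloric restriction and corticosterone were next set against ctrl. by presence. In all, 10 of the 28 sites near the 6 genes had a peak in both ctrl. libraries, 10 in both cal. res. libraries and 14 in both CORT libraries, against 21.4%, 27.9% and 43.7% of all sites. The ctrl. and cal. res. counts were the same 10 sites, which are those found in every list. The ctrl. count rests on the short list of replicate 2, without which ctrl. would hold 22. No site was held by cal. res. alone or by ctrl. alone, against 2.39% and 1.40% of all sites. The 4 sites held by CORT alone, against 15.2%, were the Clock intron site, and 3 near Nr1d1 at 13.7 and 34.4 kb upstream and 45.9 kb downstream of its start.

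Of these 4 sites, the one 13.7 kb upstream of Nr1d1 also had a peak in ctrl. replicate 1 at percentile 59.9 and in cal. res. replicate 2 at 34.6, with 51.7 and 72.0 in CORT. The one 34.4 kb upstream also had peaks in ctrl. replicate 1 at 71.0 and in cal. res. replicate 1 at 10.4, with 59.5 and 75.1 in CORT. The one 45.9 kb downstream, at the start of Med24, was found in the CORT lists only, at 7.46 and 25.2. The CORT lists were among the longest, and with 12458 regions per library CORT held 7 of 14 sites, ctrl. 9 and cal. res. 8, so that the higher CORT count was not seen at equal list length. Equal lengths would also take away a true gain of sites, so this comparison cannot tell list length from a gain under CORT.

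Strength was then compared at the 10 sites present in every list. Each was ranked by fold enrichment among the 8097 sites with a peak in all 6 lists, as a percentage, so that the same sites were ranked in each list. A rank, like a percentile, gives the place of a site among others and cannot show a change shared by all sites. The paper reported higher GR signal over all its sites in cal. res. and in CORT than in ctrl. A lower rank therefore need not mean less binding. Both cal. res. libraries ranked below the 4 others at 4 of the 10 sites, against 10.8% of the 8097 sites. The 4 were the Arntl start, the Nr1d1 intron, the Nr1d1 start and the Nr1d2 start. Among sites within 1 kb of any annotated transcription start, this was so for 3 of 6, against 20.3%. Of the 10 sites, 6 lay near Nr1d1. Sites of 1 gene are not replicates, and these shares carry no test.

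The mean rank at the Arntl start was 67.6 ± 17.7 in ctrl., 24.1 ± 5.86 in cal. res. and 73.8 ± 3.52 in CORT (SD, n = 2 each). At the Nr1d1 start it was 88.5 ± 5.54, 49.5 ± 11.3 and 80.3 ± 3.71 in the same order. At the Nr1d1 intron site it was 92.9 ± 2.81, 71.7 ± 2.41 and 94.5 ± 2.23, and at the Nr1d2 start 83.4 ± 10.5, 57.4 ± 3.33 and 79.8 ± 2.02. At these 4 sites the ctrl. and CORT libraries either overlapped or lay close together, whereas the cal. res. pair lay apart. The lower of the ctrl. libraries and the higher of the cal. res. libraries were at 55.1 and 28.3 at the Arntl start, 84.6 and 57.5 at the Nr1d1 start, 90.9 and 73.4 at the intron site and 75.9 and 59.7 at the Nr1d2 start.

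**Figure D3:**
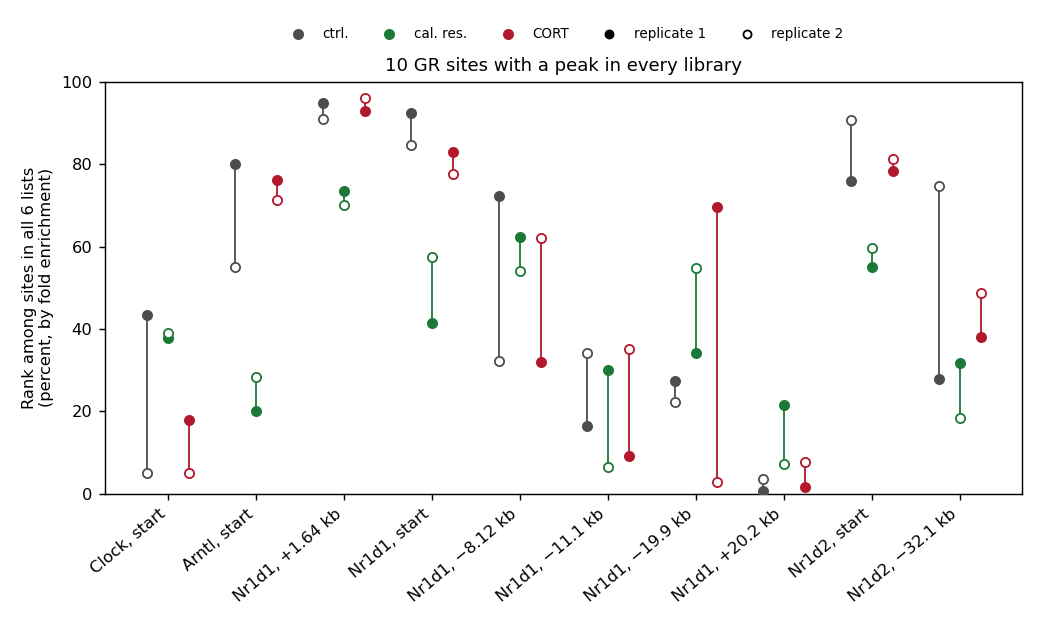
Rank by fold enrichment among the 8097 sites with a peak in all 6 lists (percent, 100 the highest) at the 10 such sites near the clock genes, for each library. Lines join the 2 replicates of a group. The cal. res. pair lies below both other pairs at the Arntl start, the Nr1d1 intron and start, and the Nr1d2 start, and not at the others, where groups overlap or the order differs.

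The other 6 sites did not share this order. The Clock start ranked at 43.3 and 5.08 for ctrl., 37.8 and 39.1 for cal. res. and 17.9 and 4.996 for CORT, so that cal. res. lay above CORT. The Nr1d1 site in Thra ranked at 0.710 and 3.51 for ctrl., 21.4 and 7.20 for cal. res. and 1.64 and 7.60 for CORT. Here, and at the site 19.9 kb upstream of Nr1d1, both cal. res. libraries ranked above both ctrl. libraries. At the sites 8.12 and 11.1 kb upstream of Nr1d1 and at the Nkiras1 start, the cal. res. values overlapped those of ctrl. Counted pair by pair, both cal. res. libraries ranked below both ctrl. libraries at 4 of 10 sites, against 21.0% of sites, and below both CORT libraries at 5 of 10, against 25.6%. Both ctrl. libraries ranked below both CORT libraries at none of the 10, against 19.2%.

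None of these differences passed the test. A limma fit over the 8097 sites, on normal scores of the ranks, called 0 sites between cal. res. and ctrl. (0% of sites, with 793 sites at an unadjusted p under 0.05), 5 between CORT and ctrl. (0.0618%) and 2 between cal. res. and CORT (0.0247%), and none of the 10 sites near the 6 genes was called in any of the 3 comparisons. Between cal. res. and ctrl. the difference in normal scores was −1.24 ± 0.357 (SE) at the Nr1d1 start, with a limma adjusted p of 0.344, and −1.19 ± 0.427 at the Arntl start, with an adjusted p of 0.453. It was −0.907 ± 0.283 at the Nr1d1 intron site (adjusted p = 0.377, limma) and −0.830 ± 0.361 at the Nr1d2 start (adjusted p = 0.487, limma). The Clock start had the opposite sign, 0.609 ± 0.591, with a limma adjusted p of 0.758.

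Against CORT, cal. res. differed by −1.35 ± 0.427 at the Arntl start (adjusted p = 0.183, limma) and by −1.04 ± 0.283 at the Nr1d1 intron site (adjusted p = 0.146, limma). The values were −0.869 ± 0.357 at the Nr1d1 start, −0.650 ± 0.361 at the Nr1d2 start and 0.988 ± 0.591 at the Clock start, with limma adjusted p-values of 0.271, 0.398 and 0.433. With the name style as a term these differences moved to −0.631 ± 0.585 at the Arntl start and −0.454 ± 0.495 at the Nr1d1 start. They moved to −1.27 ± 0.468 at the Nr1d2 start and 2.46 ± 0.826 at the Clock start, and no site near the 6 genes was called. That term rests on the gap between the 2 ctrl. libraries alone, which cannot be told apart from a difference between replicates. Between CORT and ctrl. the limma adjusted p-values of the 10 sites ran from 0.705 to 0.997, and the differences from −0.379 to 0.348. Over the 10 sites the median difference between cal. res. and ctrl. was −0.523, against 0.0180 over all 8097 sites, with 6 of 10 below 0. The sites of other clock genes, described below, also had a median below 0. With 2 biological replicates a group, the p-values measure only the spread between these libraries, which limma drew at each site towards the spread at other sites. Differences between animals and between library preparations cannot be told apart in it.

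**Figure D4:**
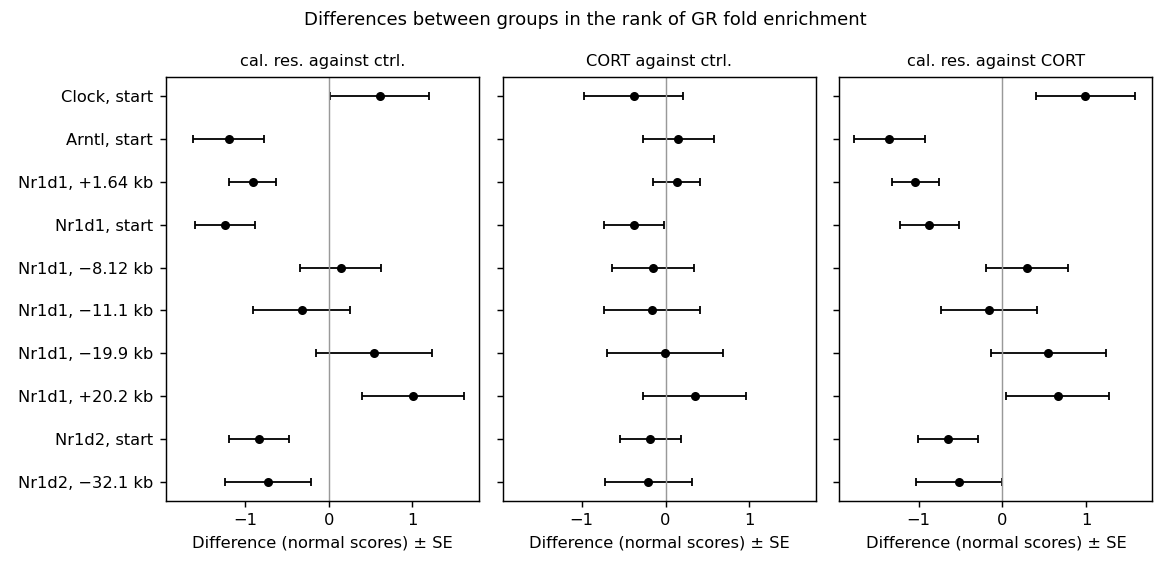
Difference between groups in normal scores of the rank of GR fold enrichment, with its SE, at the 10 sites in 3 comparisons from 1 limma fit. The points at the Arntl start, the Nr1d1 intron and start and the Nr1d2 start lie left of 0 in both comparisons of cal. res. So do those 32.1 kb upstream of Nr1d2 and 11.1 kb upstream of Nr1d1, and no point was called in any panel. The comparisons share libraries and are not independent.

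FOXO1 was present at 9 of the 28 sites, against 13.9% of all sites, and at 7 of the 10 sites with a peak in every list, against 50.7%. Beside Arntl, the highest FOXO1 regions lay at the Nr1d1 sites 8.12 kb upstream (percentile 86.0 of the FOXO1 list) and 1.64 kb downstream of the start (75.2), with summits 32 and 89 bp from the GR summits. The Nr1d1 start itself, between these sites, had no FOXO1 region. The 3 further FOXO1 regions upstream of Nr1d1, at the GR sites 11.1, 13.7 and 19.9 kb away, were at percentiles 11.99, 43.2 and 16.5. These 3 GR sites lay nearer to the start of Msl1 than to that of Nr1d1. Of all genes, 1.97% had as many FOXO1 regions as the 5 of Nr1d1 or more.

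The Nr1d2 start carried a pair of FOXO1 regions under 1 GR site. One, at percentile 61.0, had its summit 479 bp downstream of the start and 635 bp from the highest GR summit. This FOXO1 summit was 14 bp from the forkhead letters printed above, which lie between 2 E-boxes. The other, at percentile 42.1, had its summit 180 bp upstream, near the highest GR summit at 156 bp upstream. None of the 8 motifs was found in the 200 bp at that GR summit, and GR summits of the libraries were up to 834 bp apart. The remaining Nr1d2 region, at percentile 9.38, lay 2.15 kb downstream at the weak intronic site of ctrl. replicate 1. At Arntl the forkhead letters were 21 bp from the FOXO1 summit and the ROR and REV-ERB letters 42 bp. Forkhead letters were found within 100 bp of the summit at 3 of these 10 FOXO1 regions and at 18.9% of all FOXO1 regions on the main chromosomes.

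The 200 bp at the GR summits held few of the 8 motifs, which were read on both strands. The hexamer AGAACA was found at 2 of the 28 sites, the Npas2 start and a weak Nr1d2 intron site, and at 0 of the 10 sites in every list, against 18.4% of all sites and 20.02% of those in every list. The palindromic GR element (GNACA, 3 bases, TGTNC), which can overlap the hexamer, was at 0 of 28, against 1.89% of all sites. The E-box CACGTG was at 2 of the 10 sites, both at Nr1d1, against 6.30% of sites in every list. TAGGTCA was found at the Arntl and Npas2 starts, against 2.74% of all sites, and TGTTTAC at the Arntl start only, against 5.19%. The D-box TTANGTAA was at 3 of 28 sites (3.13% of all), the C/EBP letters TTGCNNAA at 3 (15.1%) and the STAT letters TTCNNNGAA at 1 (8.16%). At the 9 Rora body sites in every list, TGTTTAC was present at 3 (6.15% of all sites in every list), AGAACA at 2 (20.02%) and CACGTG at 1 (6.30%). The C/EBP letters were at 2 (17.4%), the D-box at 1 (3.62%) and the other motifs at none. A match is a description of letters and was not tested as a bound element.

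The other clock genes were read in the same way from a list of 18, which covers the Per and Cry repressors, the other ROR genes, the D-box factors Dbp, Tef, Hlf and Nfil3, Bhlhe40, Bhlhe41 and regulators such as Ciart and Csnk1d. All 18 had a GR site within 50 kb, against 73.2% of protein-coding genes, with a median of 8.5 and a range from 1 to 25, and 16 had a site in every list, against 37.9%. FOXO1 regions lay within 50 kb of 15 of the 18 and of 4 of the 6 genes described here, against 33.3% of protein-coding genes. At the 44 sites of the list in all 6 lists, limma called none in any of the 3 comparisons. Their median difference between cal. res. and ctrl. was −0.202, with 30 of 44 below 0. A median below 0 was thus not particular to the 6 genes. Nr1d1, with 15 sites, was thus in the range of Per2 (15), Tef (15) and Ciart (18), and Rora with 1 site was level with Rorb and Csnk1e.

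Likeness to other genes was read from the highest percentile within 50 kb in each of the 7 lists, FOXO1 included, over all protein-coding genes more than 100 kb away. The smallest Euclidean distances were to Mical3 (5.08) for Nr1d1, to Map3k21, Pcnx2 (8.95 each) and Tatdn2 (9.37) for Nr1d2, and to Cd40, Ncoa5 (15.7 each) and Kcnh6 (15.8) for Clock. For Arntl, 5 genes including Brd2 and H2-DMa were tied at 9.81. For Npas2 they were Nsmce3, Gm49361 and Btbd3, from 16.3 to 25.0. Genes at the same distance share the same sites, and for Rora, with a peak in 1 list, the measure found genes with a similar lone peak such as Prkcq, at a distance of 0.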

How the data were processed

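The 6 genes, the other lists and the tests were chosen with earlier results of these data known. Per the labels and the published methods, reads had been mapped to mm10 by the authors with BWA, cleared of duplicates and multimappers (Picard, Bamtools), and used to call peaks with MACS2, per library for GR and on merged libraries for FOXO1, and blacklisted regions were removed. The deposited lists give each peak's fold enrichment, a ratio over local background, and its p-value and q-value as −log10 from the authors' peak caller. The largest q-value of a GR list was between 0.0994 and 0.0998, and that of the FOXO1 list was 9.84e-06.

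Peaks with the same start and end were reduced to the highest summit, and regions that share 1 bp were merged into sites. A group held a site when both libraries had a peak. All peaks on 21 chromosomes lay within the GRCm38 chromosome ends, and genes were from GENCODE M21 (basic). Printed sites were those with a peak in all 6 lists, within 1 kb of the gene start, held by 1 or 2 groups, or overlapping FOXO1, and the Rora sites named were chosen after their values were seen. Some genes most like Nr1d1 are not reported here. Motifs were searched in 200 bp at the summit of the list with the highest percentile. Since the files hold no read counts, groups were compared with limma on normal scores of the rank of fold enrichment. The fit was trended and two-sided, with Benjamini-Hochberg adjustment over 8097 sites and calls at 0.05. It was also run on simulated normal scores drawn with the same spread at every site, which real sites need not share. The files hold no read totals per library, so that no interval was given for counts of sites. Alternatives were stricter q-values, equal list lengths, other windows, either library, other scales, a replicate block, a name-style term and each library left out in turn. Python 3.11.15, pandas 2.3.3, NumPy 2.4.6, SciPy 1.17.1, matplotlib 3.10.9, R 4.3.3 and limma 3.58.1 were used.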

Additional observations from a re-analysis of the deposited data

How the results depend on the processing

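Counts of sites near the 6 genes moved with the threshold and the window. At a q-value of at most 1e-05 there were 15 sites, 6 of them held by ctrl., and with equal list lengths 14 sites, 7 of them held by CORT. Within 10 kb there were 14 sites, held at 6 by each of ctrl., cal. res. and CORT, and within 100 kb there were 44. The gene bodies with 10 kb upstream gave 58 sites, held at 18 by ctrl., 26 by cal. res. and 30 by CORT, with 15 over FOXO1 and 40 in Rora. Counting a peak in either library gave 22 sites for ctrl. and 16 for cal. res. Leaving out each library gave 23 to 28 sites, 10 to 22 held by ctrl., 10 to 13 by cal. res., 14 to 17 by CORT and 8 to 9 over FOXO1. The 22 came from leaving out ctrl. replicate 2, the shortest list.

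Over all sites, limma calls between cal. res. and ctrl. went from 0 to 22 on median-centred log2 fold enrichment, 11 with sites in at least 3 lists and 1 at equal list length. Between CORT and ctrl. they went from 5 to 20, 31 and 10 under these settings and to 19 with a name-style term. Between cal. res. and CORT they went from 2 to 315, 4 and 15, to 0 with percentiles in the whole list or a name-style term, and to 4 with ranks of −log10 p. Leaving out each library gave 0 to 26, 0 to 63 and 0 to 158 calls in the 3 comparisons, with the highest values without ctrl. replicate 2. The causes were not tested. None of the sites near the 6 genes was called under any of these alternatives. The cal. res. differences at the Arntl start, the Nr1d1 intron, the Nr1d1 start and the Nr1d2 start kept their sign in all of them. This was not particular to these sites. At the Nkiras1 start the cal. res. differences, −0.722 against ctrl. and −0.516 against CORT, also stayed below 0. Differences of cal. res. from ctrl. in Thra and 19.9 kb upstream of Nr1d1, and from CORT at the Clock start, stayed above 0 wherever tested. At the Nr1d1 sites 8.12, 11.1 and 19.9 kb upstream and in Thra, a cal. res. difference changed sign under at least 1 alternative, for example at 8.12 kb against ctrl. from 0.142 to −0.380 without ctrl. replicate 2 and at 19.9 kb against CORT from 0.547 to −0.649 without CORT replicate 2. The difference at the Clock start between cal. res. and ctrl. turned to −0.184 without ctrl. replicate 2 and was highest, 1.35, without ctrl. replicate 1.

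No label says whether libraries with equal replicate numbers were paired, and the correlations below showed no clear pairing without excluding it. Differences between replicates 1 and 2 correlated at −0.0966 between ctrl. and cal. res., −0.122 between ctrl. and CORT and 0.1003 between cal. res. and CORT, over 8097 sites. With the replicate number as a block, limma called 0, 5 and 2 sites, as without it. The main limits are 2 libraries a group, no read totals per library, lists of unequal length and a FOXO1 list with no replicate.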
